A study of Mus musculus with 15 samples.

Results

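Chemokines are small secreted or membrane-anchored proteins that direct the migration of leukocytes through G protein-coupled receptors, and the intestinal epithelium is one of their sources. Ccl25 and Ccl28 recruit lymphocytes that home to the small intestine and to mucosal surfaces, Ccl20 attracts cells carrying Ccr6 to lymphoid follicles, and Cxcl1 and Cxcl5 recruit neutrophils through Cxcr2. Cx3cl1 and Cxcl16 differ from the rest in carrying a transmembrane stalk, from which the metalloproteases Adam10 and Adam17 can release them.

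The transcripts of 10 such ligands (Ccl25, Ccl20, Ccl28, Ccl9, Ccl5, Cx3cl1, Cxcl1, Cxcl5, Cxcl14 and Cxcl16) were followed by name through RNA-seq of mouse small-intestinal organoids, in which 43629 genes were counted. The organoids were epithelial cultures from the proximal small intestine of mice on a mixed C57B6/129 background. Of the 5 WT libraries, 4 were Apc flox/flox (replicates 1, 2, 5 and 6, a line each). The other (NAIVE) was dox-naive, with a silent doxycycline-inducible Cas9. The 4 Apc libraries carried the recombined alleles (delta/delta) of those lines and bear the same numbers. The 4 P-Rspo3 libraries, labelled 15d, 4d, M and F, held the Ptprk-Rspo3 inversion made by inducible Cas9. The cultures were polyclonal, so that not every cell need carry it. A genomic assay by the authors placed the inversion in most, and perhaps all, cells of such cultures after growth without RSPO1. WT organoids were kept in ENR medium (EGF, Noggin and RSPO1) and both mutant groups in EN medium, which lacks RSPO1, so genotype and medium cannot be told apart in comparisons with WT. Apc and P-Rspo3 organoids shared the medium. Nothing in the labels says that libraries of P-Rspo3 came from separate animals, and all p-values below measure only the spread between these libraries.

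Library totals were 28902729 to 35528495 counted reads in the 13 grouped libraries. Rspo3 was at 539 to 1079 counts in P-Rspo3, at 0 or 1 in WT and at 7 to 57 in Apc. Axin2, a target of Wnt signalling, had 148 to 173 FPKM in Apc and 24.7 to 51.6 FPKM in WT. The reads over the whole Apc gene (28.3 to 30.5 FPKM in Apc, 11.6 to 22.3 FPKM in WT) do not separate the deleted part and check nothing. Among 6 epithelial markers the summed level was alike, with 2060 to 2380 FPKM in WT, 2020 to 2460 FPKM in Apc and 1930 to 2290 FPKM in P-Rspo3, although in Apc against WT Krt18 was called higher (log2FC 1.11) and Vil1 lower (-1.26). The sum over 10 immune cell markers was at most 10.7 FPKM in any library. FPKM counts fragments per unit of transcript length and of sequencing depth, and it allows levels of different genes to be set side by side.

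The start of each gene was examined first, for letters that transcription factors of this tissue and of inflammation are known to bind. RefSeq windows on GRCm38.p6, each from 250 bases before to 50 bases after an annotated start, were found for 7 of the 10 genes (8 windows, since Ccl25 has 2 starts). Each motif was chosen after the sequences had been seen and was searched on both strands. The kappaB consensus, the site of the NF-kB factors, was present in the windows of Ccl20, Ccl9 and Cxcl1, and in 4.51% of all 32851 windows. The letters TTTATG, the core bound by CDX factors, were in 11.9% of windows. The 4 windows below are shown because they carry these matches in genes that were called in Apc organoids, lower for Ccl25, Ccl20 and Ccl9 and higher for Cxcl1, with matches in capitals.
Ccl25, chr8:4349338-4349637, plus strand, downstream start: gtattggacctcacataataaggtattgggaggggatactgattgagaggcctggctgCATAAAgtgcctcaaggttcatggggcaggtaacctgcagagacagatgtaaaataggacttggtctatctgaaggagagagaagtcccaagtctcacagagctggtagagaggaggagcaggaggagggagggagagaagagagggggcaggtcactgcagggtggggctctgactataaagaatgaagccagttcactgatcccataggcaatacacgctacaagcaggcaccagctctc
Ccl20, chr1:83116516-83116815, plus strand: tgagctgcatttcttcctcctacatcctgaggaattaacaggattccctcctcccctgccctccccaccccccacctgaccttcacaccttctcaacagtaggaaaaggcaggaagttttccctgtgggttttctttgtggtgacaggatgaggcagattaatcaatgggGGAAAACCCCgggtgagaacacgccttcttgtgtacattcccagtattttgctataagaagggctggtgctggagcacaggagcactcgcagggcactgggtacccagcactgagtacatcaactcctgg
Ccl9, chr11:83578587-83578886, minus strand: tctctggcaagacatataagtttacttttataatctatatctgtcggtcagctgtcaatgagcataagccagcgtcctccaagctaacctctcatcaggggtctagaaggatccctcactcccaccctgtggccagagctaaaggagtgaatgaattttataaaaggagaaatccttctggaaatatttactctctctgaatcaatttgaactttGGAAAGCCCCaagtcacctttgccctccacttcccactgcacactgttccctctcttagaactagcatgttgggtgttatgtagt
Cxcl1, chr5:90890995-90891294, plus strand: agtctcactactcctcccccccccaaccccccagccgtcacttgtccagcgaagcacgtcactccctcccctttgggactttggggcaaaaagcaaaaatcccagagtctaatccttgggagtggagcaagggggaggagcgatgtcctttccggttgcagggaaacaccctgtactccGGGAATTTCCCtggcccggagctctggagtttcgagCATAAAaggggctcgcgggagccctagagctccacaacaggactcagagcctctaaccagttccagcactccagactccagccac

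In Ccl20 the match GGAAAACCCC to the kappaB consensus began at -80 from the start, and in Ccl9 the match GGAAAGCCCC began at -35. Cxcl1 held GGGAATTTCC at -71, which overlaps a match on the other strand that began at -70. CATAAA, the reverse complement of the CDX letters, stood at -192 of the downstream start of Ccl25 and at -35 of Cxcl1. The upstream Ccl25 window (chr8:4324960-4325259) held CTTTGA, the letters bound by TCF/LEF factors, at -68, as did 16.0% of all windows. The HNF4 letters CAAAGTCCA, found in 0.475% of windows, were in none of the 8. The windows of Ccl28, Cx3cl1 and Cxcl14 held none of these letters. A kappaB match was thus found in 2 genes that were lower and in a gene that was higher in Apc, and no direction can be read from it.

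In WT organoids, Ccl25 exceeded the other ligands by an order of magnitude. Its mean was 252 ± 23.3 FPKM (SD, n = 5), followed by Ccl28 with 18 ± 2.35 FPKM, Ccl9 with 15.8 ± 4.89 FPKM and Cx3cl1 with 13.8 ± 2.1 FPKM. Cxcl16 (7.48 ± 3.02 FPKM) and Ccl20 (6.49 ± 0.956 FPKM) came next. The ranges of neighbours in this order overlapped from Ccl28 to Ccl20, so only Ccl25 stood apart at the top. Cxcl1, Ccl5, Cxcl5 and Cxcl14 had means of at most 0.0708 FPKM and were at or near the limit of detection, here taken as 3 counts in a library. P-Rspo3 organoids had the same first 4 ligands in the same order of means. In Apc organoids the order was different. Ccl25 (16.3 ± 1.05 FPKM, n = 4) and Cxcl16 (12.4 ± 4.2 FPKM) overlapped at the top, Cx3cl1 followed at 7.03 ± 1.01 FPKM, and all others were below 1 FPKM on average.

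**Figure D1:**
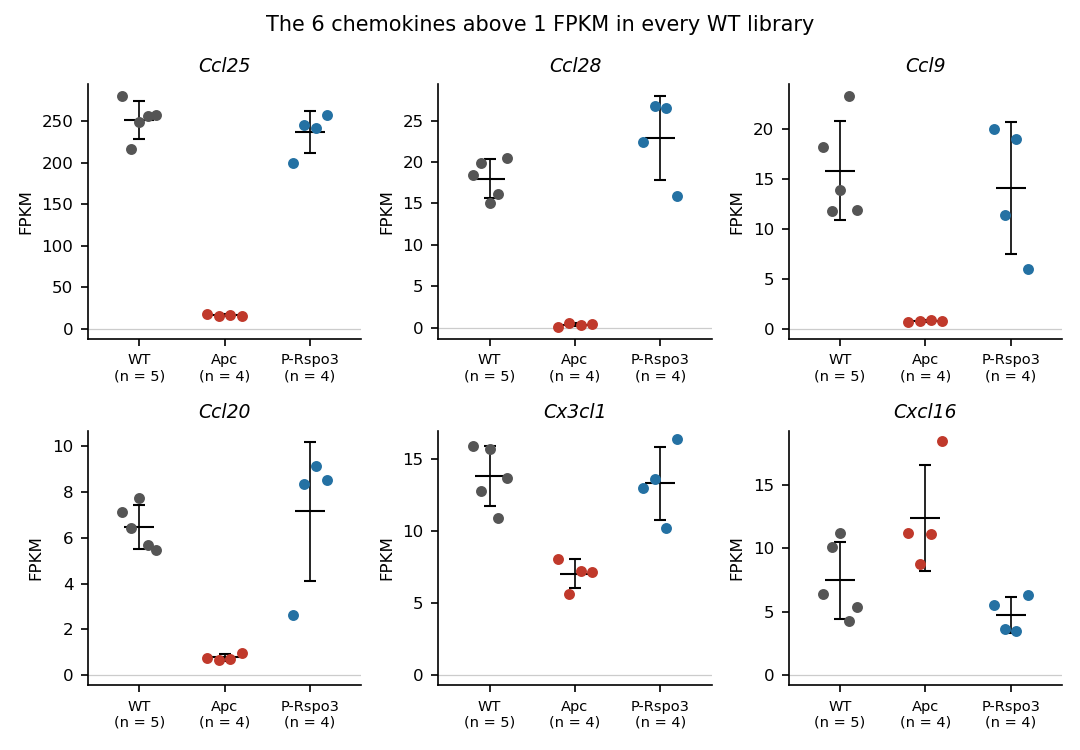
FPKM (vertical axis, linear) of the 6 ligands that exceeded 1 FPKM in every WT library, with a point for each library and a bar for the mean with its SD in WT (n = 5), Apc (n = 4) and P-Rspo3 (n = 4). Apc points lie below every WT and P-Rspo3 point for Ccl25, Ccl28, Ccl9, Ccl20 and Cx3cl1, and above every P-Rspo3 point for Cxcl16.

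The first comparison asked how loss of Apc, a brake on Wnt signalling, altered these transcripts relative to WT. Counts were compared by edgeR's quasi-likelihood test over 16749 genes, and calls required both an adjusted p (Benjamini-Hochberg) under 0.05 and an absolute log2 fold change (log2FC) above 1. Of the 10 ligands, 8 passed the filter of 0.1 FPKM in at least 4 libraries. Ccl25, Ccl20, Ccl28, Ccl9 and Cx3cl1 were called lower, where 14.1% of all genes tested were. Cxcl1 was called higher, where 12.2% of all genes were. Over all genes this split was 2048 higher and 2364 lower, and it was 2586 and 1731 with limma on log2(FPKM + 0.1). The FPKM ranges of Apc and WT did not overlap for these 6 of the 8 tested, against 54.5% of all genes tested. Ccl25, Ccl20, Ccl9, Cx3cl1 and Cxcl16 reached the filter in all 13 libraries and Ccl28 in 12. In this comparison Cxcl1 met it through all 4 Apc libraries and 1 WT library, and Ccl5 through 3 Apc libraries and 1 WT library, so their passing is no support for a direction.

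Ccl25, the ligand of Ccr9 that marks the small intestine for homing T cells, was the most abundant and the most evenly expressed. The WT libraries had 281, 217, 249, 256 and 257 FPKM in the order 1, 2, 5, 6 and NAIVE. The Apc libraries had 17.4, 15.1, 16.9 and 15.7 FPKM for lines 1, 2, 5 and 6. P-Rspo3 had 200, 246, 242 and 258 FPKM for 15d, 4d, M and F. Every Apc library was far below every other library, while WT and P-Rspo3 overlapped. The log2FC of Apc against WT was -4.41 (SE 0.10, adjusted p = 1.3e-09), a 21.3-fold fall. Within lines the FPKM of WT was 14.3 to 16.3 times that of Apc. The fall was smaller on the FPKM scale, on which the median of all genes tested was itself shifted in Apc (0.277 as log2(FPKM + 0.1)). Ccl25 lies at chr8:4325210-4360020 on the plus strand and shares 204 of its 7445 exonic bases with Elavl1 on the other strand. Elavl1 had 18.7 to 21.1 FPKM in Apc and 12.6 to 15.2 FPKM in WT, moving the opposite way.

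Ccl28, which draws IgA-secreting plasma cells through Ccr10 and also binds Ccr3, fell the most. WT had 18.4, 19.9, 15, 16.2 and 20.5 FPKM. Apc had 0.0781, 0.541, 0.327 and 0.431 FPKM, from 12, 66, 43 and 64 counted reads. P-Rspo3 had 22.4, 26.8, 26.5 and 15.9 FPKM. The Apc library of line 1 was the lowest, and no Apc library came near the others. The log2FC was -6.00 (SE 0.35, adjusted p = 2.1e-07), or 63.9-fold. Within lines 2, 5 and 6 the WT level was 36.8 to 46.0 times that of Apc, and in line 1 it was 236 times, a ratio resting on those 12 reads.

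Ccl9, a ligand of Ccr1 on myeloid cells, was more variable among WT libraries, with 18.2, 11.8, 13.9, 23.3 and 11.9 FPKM. Apc had 0.716, 0.796, 0.868 and 0.743 FPKM. P-Rspo3 had 20.0, 11.4, 19.0 and 6.01 FPKM. Lines 1 and 6 were the highest in WT but not in Apc, where the libraries lay close together on this scale although their counts ran from 17 to 50. The log2FC of Apc against WT was -4.35 (SE 0.32, adjusted p = 1.1e-06). Within lines, WT exceeded Apc by 14.9- to 31.3-fold.

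Ccl20, the ligand of Ccr6, had 7.12, 6.42, 7.76, 5.68 and 5.49 FPKM in WT. In Apc it had 0.760, 0.658, 0.697 and 0.994 FPKM, from 16 to 27 counted reads a library. In P-Rspo3 it had 2.65, 8.36, 9.14 and 8.52 FPKM. The P-Rspo3 library 15d was below every WT library yet above every Apc library. Apc was lower than WT by a log2FC of -3.30 (SE 0.20, adjusted p = 2.8e-07), and the within-line folds were 5.72 to 11.1.

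Cx3cl1, the membrane-anchored ligand of Cx3cr1 on mononuclear phagocytes, fell far less. It had 15.9, 12.8, 15.7, 10.9 and 13.7 FPKM in WT and 8.05, 5.64, 7.23 and 7.18 FPKM in Apc. P-Rspo3 had 13, 13.6, 10.2 and 16.4 FPKM. The groups did not overlap, and the nearest pair of values was 8.05 in Apc line 1 and 10.9 in WT line 6. The log2FC was -1.21 (SE 0.13, adjusted p = 1.6e-05), close to the threshold of -1. On log2(FPKM + 0.1) and log2(FPKM + 1) with limma it was -0.96 and -0.88, below the threshold in size, with adjusted p of 0.00019 and 0.00021.

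Cxcl16, the membrane-anchored ligand of Cxcr6, was the only abundant member that was not lower in Apc than in WT. WT had 6.38, 10.1, 11.2, 4.29 and 5.41 FPKM. Apc had 11.2, 8.79, 11.1 and 18.5 FPKM. P-Rspo3 had 5.54, 3.67, 3.50 and 6.33 FPKM. Apc and WT overlapped, with WT lines 2 and 5 inside the Apc range, and Apc against WT had a log2FC of 0.46 (SE 0.31, adjusted p = 0.23, 95% confidence interval -0.23 to 1.14). The lines did not move alike. The log2 ratio of Apc to WT in FPKM was 2.11 in line 6, 0.81 in line 1, -0.01 in line 5 and -0.20 in line 2. Cxcl16 (chr11:70453983-70459984, minus strand) shares 18.3% of its exonic bases with Zmynd15 on the other strand, which had at most 0.694 FPKM in any Apc library.

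**Figure D2:**
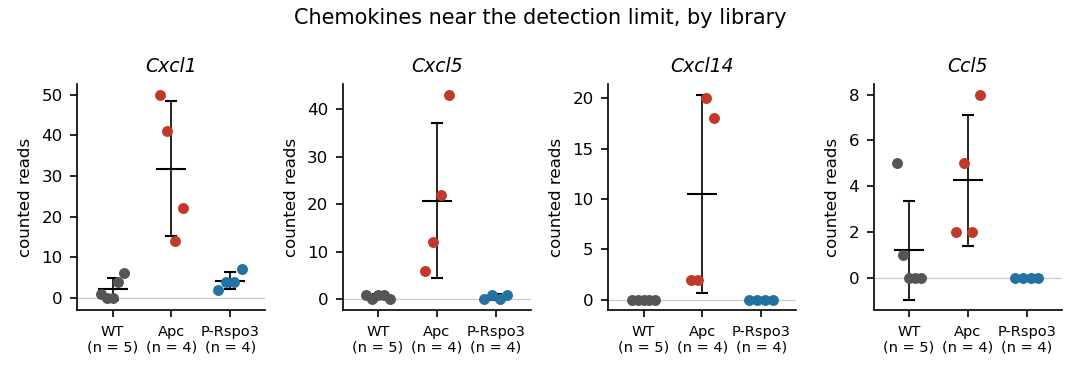
Counted reads (vertical axis, linear) of the 4 ligands near the detection limit, with a point for each library and a bar for the mean with its SD in WT (n = 5), Apc (n = 4) and P-Rspo3 (n = 4). The Apc libraries reach 50 reads for Cxcl1, 43 for Cxcl5, 20 for Cxcl14 and 8 for Ccl5, while WT and P-Rspo3 stay at or below 7.

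The neutrophil attractants Cxcl1 and Cxcl5 were barely detected outside Apc organoids. Cxcl1 had 1, 0, 0, 4 and 6 counted reads in WT, 50, 41, 14 and 22 in Apc and 2, 4, 4 and 7 in P-Rspo3. Every Apc library was above every other library. The log2FC of Apc against WT was 3.41 (SE 0.71, adjusted p = 0.0017). It was 4.2 without the WT library NAIVE, which had the most Cxcl1 reads of its group, and 4.17 with the line as a replicate block, where the fit also left that library out. With limma on log2(FPKM + 1) it was 0.84 and was not called. Cxcl5 had 1, 0, 1, 1 and 0 reads in WT, 6, 12, 22 and 43 in Apc and 0, 1, 0 and 1 in P-Rspo3, and it did not pass the filter. The Apc libraries were again all above the rest. Summed over libraries and divided by their totals, Cxcl5 was 32.1 times as frequent in Apc as in WT (95% exact interval 10.6 to 159, from 83 and 3 reads, covering counting error only). Lines 5 and 6 had the most Cxcl5 reads and lines 1 and 2 the most Cxcl1 reads.

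Cxcl14, an epithelial chemokine of resting tissues, had 2, 2, 20 and 18 reads in Apc lines 1, 2, 5 and 6 and none in any WT or P-Rspo3 library. Lines 5 and 6 carried nearly all of it. Against the limit of 3 reads in each WT library, it was at least 3.25-fold higher in Apc as a group. Without the filter on FPKM, edgeR called both Cxcl5 (adjusted p = 0.00022) and Cxcl14 (adjusted p = 0.0055) higher in Apc than in WT. Ccl5, a ligand of Ccr1 and Ccr3, had 5, 1, 0, 0 and 0 reads in WT, 2, 5, 2 and 8 in Apc and none in P-Rspo3. Apc and WT overlapped for Ccl5, and the difference was not called (log2FC 1.35, SE 0.91, adjusted p = 0.23).

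The second comparison asked whether the Ptprk-Rspo3 fusion, which supplies R-spondin from within the culture, shifted these ligands away from WT. Of the 10, 7 passed the filter and none was called, where 0.00625% of the 15992 genes tested were called higher and 0% lower. The FPKM ranges overlapped for all 7, against 4.13% of all genes whose ranges did not. At an unadjusted p under 0.05 edgeR gave 1 of the 7, Ccl28 (unadjusted p = 0.037, adjusted p = 0.33), and 2159 of the 15992 genes, a like share. DESeq2 and both limma settings called 0. The interval of the difference was narrowest for Ccl25, with a log2FC of -0.10 (95% confidence interval -0.34 to 0.14). For Ccl28 it was 0.36 (0.03 to 0.69), for Cx3cl1 -0.05 (-0.40 to 0.30), for Ccl20 0.15 (-0.55 to 0.85) and for Ccl9 -0.19 (-0.91 to 0.54). For Cxcl16 it was -0.65 (-1.37 to 0.07) and for Cxcl1 0.93 (-0.86 to 2.71). Changes of any size within these intervals are compatible with the data. No smallest detectable change was worked out. These intervals do not show that the groups were equal.

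Spread among P-Rspo3 libraries was larger than among WT for some ligands. Library 15d was low for Ccl20 and Ccl25, with 2.65 and 200 FPKM, but not for Ccl28 or Ccl9. Library F was lowest for Ccl9 and Ccl28, with 6.01 and 15.9 FPKM, and highest for Ccl25 and Cx3cl1. The same libraries differed in markers of cell types. Library 15d had the lowest summed level of 10 enterocyte markers in this group (2510 FPKM, against 3480 to 5620 FPKM), and F had the lowest of 6 goblet cell markers (710 FPKM, against 1260 to 1400 FPKM). Library 15d also had the highest goblet and Paneth cell marker sums (1400 and 6780 FPKM), and F the highest enterocyte sum (5620 FPKM). Their part in the chemokine values was not tested.

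**Figure D3:**
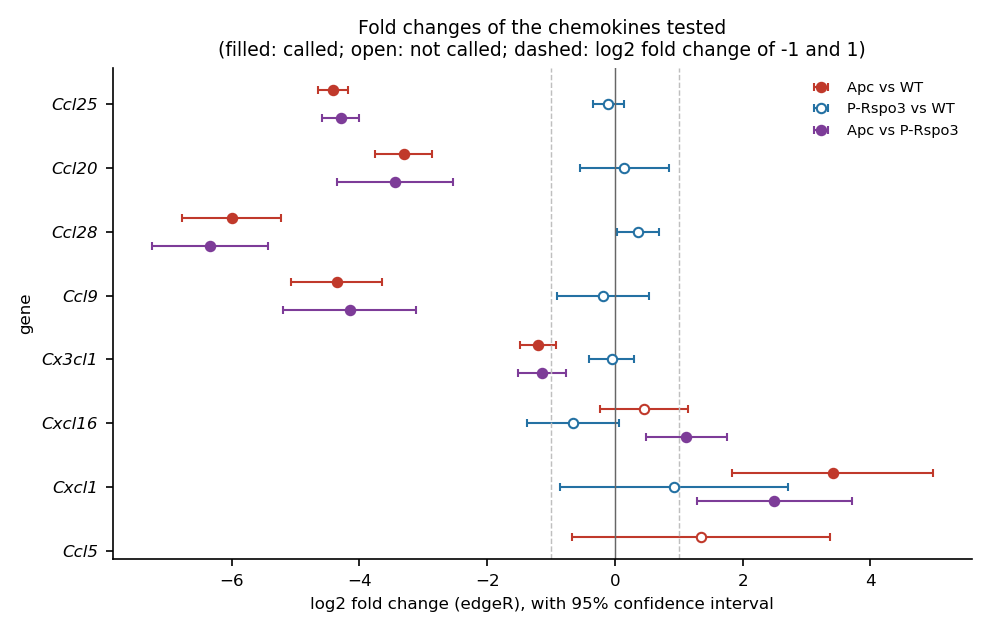
Log2 fold change from edgeR (horizontal axis) with its 95% confidence interval for each ligand tested, in Apc against WT (red), P-Rspo3 against WT (blue) and Apc against P-Rspo3 (purple), with filled points where it was called. Ccl25, Ccl20, Ccl28, Ccl9 and Cx3cl1 lie below -1 in both Apc comparisons, and all intervals of P-Rspo3 against WT include 0 except that of Ccl28 (0.03 to 0.69).

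Apc and P-Rspo3 organoids were compared in the same medium. This comparison shares its libraries with the previous ones. Of the 7 ligands tested among 16456 genes, 5 were called lower in Apc, where 13.3% of all genes were, and 2 higher, where 13.4% were. The split over all genes was 2209 higher and 2183 lower, and it was 2608 and 1653 with limma on log2(FPKM + 0.1). FPKM ranges did not overlap for any of the 7, against 55.6% of all genes. The log2FC was -4.29 for Ccl25 (SE 0.13), -3.44 for Ccl20 (SE 0.40), -6.34 for Ccl28 (SE 0.40), -4.15 for Ccl9 (SE 0.46) and -1.14 for Cx3cl1 (SE 0.17). The largest adjusted p of these 5 was 0.00034. Cxcl1 rose by 2.49 (SE 0.54, adjusted p = 0.0032). Cxcl16, which was not called in Apc against WT, was higher in every Apc library (8.79 to 18.5 FPKM) than in any P-Rspo3 library (3.50 to 6.33 FPKM), with a log2FC of 1.12 (SE 0.28, adjusted p = 0.0076). This call was lost without P-Rspo3 library 4d (0.99), P-Rspo3 library M (0.96) or Apc library 6 (0.89), and that of Cx3cl1 without P-Rspo3 library F (-0.99), because the log2FC then lay within the threshold of 1. Ccl5, Cxcl5 and Cxcl14 did not pass the filter. Their P-Rspo3 counts were at most 1 in a library. Cxcl5 was 38.2 times as frequent in Apc (95% exact interval 10.2 to 321, from 83 and 2 reads), Cxcl14 was at least 3.22-fold and Ccl5 at least 1.30-fold higher against the limit of 3 reads a library.

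The sum and the mix of chemokine transcripts were also described. Over the 10 ligands and 28 other chemokine ligand genes, the summed level was 303 to 372 FPKM in WT, 39.8 to 52.8 FPKM in Apc and 306 to 356 FPKM in P-Rspo3. Ccl25 made up 74.1 ± 2.01% of the sum in WT (n = 5), 69.8 ± 3.57% in P-Rspo3 (n = 4) and 35.5 ± 3.91% in Apc (n = 4). The membrane-anchored pair Cx3cl1 and Cxcl16 together held 4.52 to 7.82% in WT, 3.86 to 6.41% in P-Rspo3 and 36.2 to 48.6% in Apc. Their own summed level was 15.2 to 26.9 FPKM in WT, 14.4 to 25.7 FPKM in Apc and 13.7 to 22.7 FPKM in P-Rspo3, and these ranges overlapped. The sum without the pair was far smaller in Apc, Ccl25 above all. Shares of a sum are bound to each other, and no test was made of them.

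**Figure D4:**
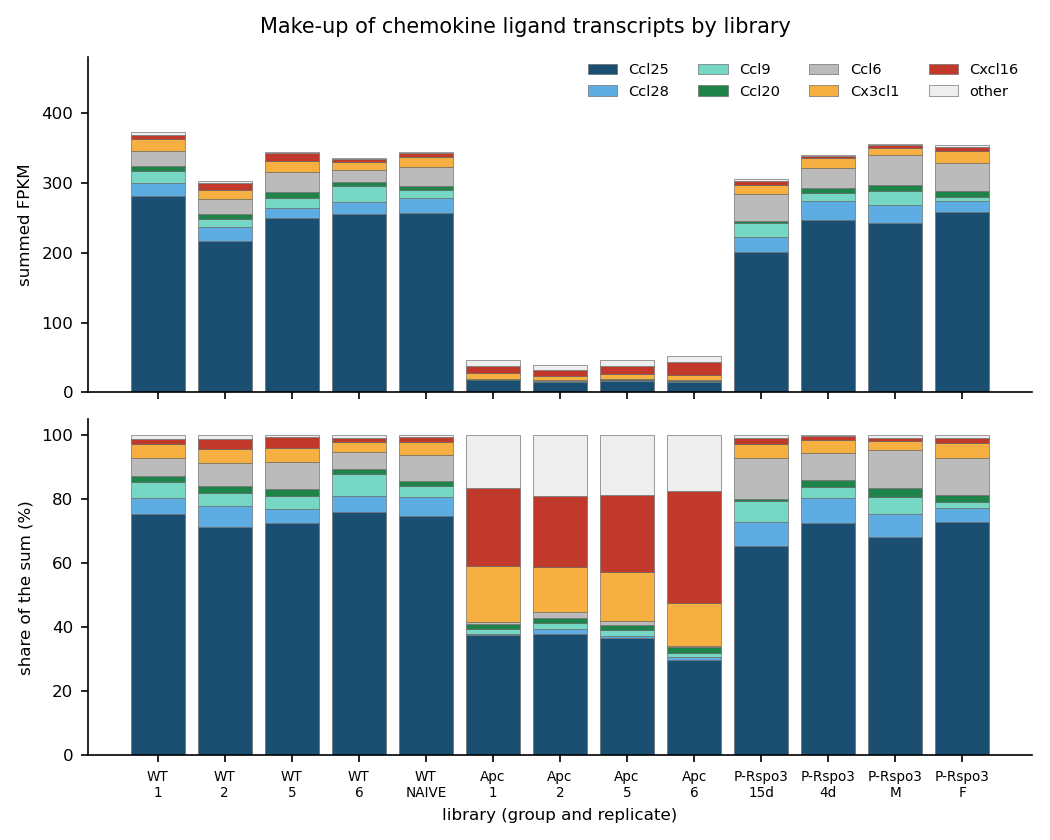
Summed FPKM of 38 chemokine ligand genes (upper panel) and the share of each ligand in that sum in percent (lower panel), with a bar for each of the 13 libraries. The Apc bars reach 39.8 to 52.8 FPKM against at least 303 FPKM elsewhere, and Cx3cl1 with Cxcl16 fill 36.2 to 48.6% of them.

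Of the 28 other ligands, 17 had at most 3 counts in every WT and Apc library and 7 were tested in Apc against WT. Of these 7, 4 were called higher and 2 lower, where 12.2% and 14.1% of all genes were. Ccl2 and Cxcl2 passed the filter through the Apc libraries alone, and Cxcl11, called lower, through WT libraries alone. Neither count is therefore support for a direction of the list. Ccl6, a relative of Ccl9 that also acts on myeloid cells, was the most abundant of them in WT, at a level like that of Ccl28 and Ccl9. It had 21.7, 22, 29.0, 17.5 and 28.1 FPKM in WT, 0.313, 0.634, 0.5 and 0.118 FPKM in Apc and 39.0, 28.6, 42.7 and 40.3 FPKM in P-Rspo3. Every Apc library was lower than every other library (log2FC against WT -6.19, SE 0.31, adjusted p = 8.1e-08). P-Rspo3 overlapped with WT only through library 4d. Ccl27a, an epithelial ligand of Ccr10, was higher in Apc (4.1 to 4.63 FPKM) than in WT (0.629 to 2.13 FPKM), with a log2FC of 1.35 (SE 0.24, adjusted p = 0.00062). Similar copies of this gene make its counts uncertain. Cxcl10, a ligand of Cxcr3, rose from 4 to 15 counts a library in WT to 15 to 40 in Apc (log2FC 1.15, SE 0.36, adjusted p = 0.017). The neutrophil attractant Cxcl2 and the monocyte attractant Ccl2 were called higher at very low levels, with 6, 10, 17 and 22 counts of Cxcl2 in Apc and 1 in all of WT, and with 10, 5, 6 and 4 counts of Ccl2 and none. Ccl2 was at least 1.93-fold higher against the limit of 3 counts a library. Cxcl11 fell to 0 to 3 counts in Apc from 1 to 44 in WT. In P-Rspo3 against WT none of 6 tested was called. In Apc against P-Rspo3, 4 of 8 were called higher and 3 lower, where 13.4% and 13.3% of all genes were. Cxcl13 (1 to 3 counts in Apc, 5 to 11 in P-Rspo3) was added to those that fell. Here Ccl2 and Cxcl2 passed the filter through Apc libraries alone, and Cxcl11 and Cxcl13 through P-Rspo3 libraries alone. Their passing is no support for a direction.

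Several of these genes are neighbours in the genome. On chromosome 5, Cxcl5 (90759360 to 90761624), Cxcl1 (90891241 to 90893115) and Cxcl2 (90903871 to 90905938) lie on the plus strand in the cluster of neutrophil attractants, and all of them had more reads in each Apc library than in any WT library. Their sequences are alike, so reads may be split between them. Between Cxcl5 and Cxcl1 on this strand lie Ppbp, Pf4, Cxcl3 and Cxcl15, none of which was tested. Ppbp and Cxcl3 had no reads in any group. In Apc, Pf4 had 0 to 3 reads a library and Cxcl15 0 to 5, and both overlapped with WT, so the cluster was not raised throughout. On chromosome 11, Ccl5 (83525778 to 83530518), Ccl9 (83572919 to 83578636) and Ccl6 (83587882 to 83593087) follow each other on the minus strand. Ccl9 and Ccl6 were both called lower in Apc. Ccl5, at 0 to 5 reads in a WT library, was too near the limit of detection for a fall to be seen. Cx3cl1 (94772009 to 94782427) lies between Ccl22 and Ccl17 on chromosome 8. Ccl17 was not called, and Ccl22 was not tested. Ccl20 on chromosome 1 (83116766 to 83119167) and Ccl28 (119623819 to 119654359) and Cxcl14 (56288643 to 56296551) on chromosome 13 have no other listed ligand beside them.

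The receptors of these ligands examined here were all but absent from the organoids. Ccr9 had 2 to 10 counts a library, Ccr10 2 to 7, Cxcr6 1 to 10, Cx3cr1 0 to 5, Ccr6 0 to 2, Ccr1 and Ccr3 0 or 1, and Cxcr2 0 in all 13. None of these 8 receptors passed the filter, so no difference in them was tested. Among 23 receptors, 4 were tested in Apc against WT, with 2 called higher and 1 lower, where 12.2% and 14.1% of all genes were. Those called higher, Cxcr4 and Ackr3, reached the filter in all 4 Apc libraries and in 2 and 1 WT libraries, so their passing is no support for a direction. Cxcr4, the receptor of Cxcl12, had 14.5, 2.83, 2.91 and 2.69 FPKM in Apc and 0.0750 to 0.373 FPKM in WT (log2FC 4.81, SE 0.66, adjusted p = 9.8e-05). Apc line 1 was far above the other Apc lines for Cxcr4. Ackr3, an atypical receptor for Cxcl12, rose by 3.79 (SE 0.73, adjusted p = 0.0011), and Ackr4, a scavenger that binds Ccl25, fell by 1.75 on the log2 scale (SE 0.28, adjusted p = 0.00026). None of 3 tested was called in P-Rspo3 against WT. In Apc against P-Rspo3 the same 3 receptors were called, Cxcr4 (4.52) and Ackr3 (5.26) higher and Ackr4 (-1.70) lower. Of all genes tested there, 13.4% were called higher and 13.3% lower. Ackr3 met the filter in that comparison through the Apc libraries alone.

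The proteases that release Cx3cl1 and Cxcl16 were expressed throughout. Adam10 had 32.6 to 40.2 FPKM in WT and P-Rspo3 and up to 63.4 FPKM in Apc, every library being above that range (log2FC against WT 0.36, SE 0.08, adjusted p = 0.0022). Adam17 had 10.1 to 16.8 FPKM in WT and P-Rspo3 and 21.0 to 23.8 FPKM in Apc (log2FC 0.51, SE 0.07, adjusted p = 8.1e-05). Neither passed the fold threshold. Rhbdf1, a rhomboid-like partner of Adam17, was the 1 of 4 in this list that was called higher in Apc, with a log2FC of 1.05 against WT (SE 0.10, adjusted p = 9.3e-06) and 1.29 against P-Rspo3. Over all genes tested, 12.2% were called higher in Apc against WT and 13.4% against P-Rspo3. The list median was 0.43 in Apc against WT, beside 0.00058 over all genes tested. In P-Rspo3 against WT 0 of 4 were called, with a median of -0.07 beside 0.00412.

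Genes of the pathways known to drive epithelial chemokines were then described. Of 14 NF-kB feedback and response genes, 13 were tested in Apc against WT. Of these, 2 were called higher, 2 lower and 9 not, with a median of -0.23. Over all genes tested, 12.2% were called higher and 14.1% lower, shares near those of this list. Icam1, an adhesion molecule for leukocytes, had 1.52 to 2.56 FPKM in Apc and 0.0486 to 0.235 FPKM in WT (log2FC 3.72, SE 0.39). The cytokine gene Tnf had 1.2 to 2.99 FPKM in Apc and 0.219 to 0.596 FPKM in WT (log2FC 2.18, SE 0.30). The feedback genes Nfkbiz (-1.67, SE 0.16) and Birc3 (-1.36, SE 0.14) fell. The adjusted p was at most 9.8e-05 for these 4. Against P-Rspo3 the same 4 genes of 13 were called in the same directions, where 13.4% of all genes were called higher and 13.3% lower. In P-Rspo3 against WT 0 of 12 were called. Icam1 met the filter mainly through the Apc libraries (median 0.0995 FPKM in WT, at most 0.0576 FPKM in P-Rspo3). Its passing is therefore no support for a direction. Tnf was lower in every P-Rspo3 library (0.0767 to 0.178 FPKM) than in any WT library, with a log2FC of -1.84 that did not pass the test (SE 0.35, adjusted p = 0.096). The NF-kB list held genes that rose and genes that fell, as did genes at large, and this split says nothing particular about the chemokines.

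Of 15 genes for IL-17 and Toll-like receptor signalling, 14 were tested in Apc against WT, with 3 called higher, 2 lower and a median of 0.12. Over all genes tested, 12.2% were called higher and 14.1% lower. Tlr4, the receptor for lipopolysaccharide, had 9.82, 7.64, 5.95 and 6.36 FPKM in Apc and at most 0.110 FPKM in WT (log2FC 8.41, SE 0.51, adjusted p = 2.6e-07). It met the filter mainly through the Apc libraries, with at most 0.0778 FPKM in P-Rspo3, so its passing is no support for a direction. Tlr2, a receptor for bacterial lipopeptides, rose by 2.79 (SE 0.28), and Il17re, a receptor subunit for IL-17C, rose by 3.07 (SE 0.30). Tlr1, the partner of Tlr2, had a log2FC of -2.34 (SE 0.35), and Il17rc, a subunit for IL-17A and IL-17F, one of -1.56 (SE 0.17). In Apc against P-Rspo3 the same 3 were called higher and the same 2 lower, where 13.4% and 13.3% of all genes were. None of 13 was called in P-Rspo3 against WT.

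Of 4 intestinal transcription factors of the CDX and HNF4 families, 3 were called lower in Apc than in WT and in P-Rspo3. Over all genes tested, 14.1% and 13.3% were called lower in these comparisons. None of the 4 was called in P-Rspo3 against WT. The list median was -2.43 in Apc against WT, beside 0.00058 over all genes tested. Cdx1 had 53.3 to 84.0 FPKM in WT, 59.6 to 75.6 FPKM in P-Rspo3 and 3.55 to 6.12 FPKM in Apc (log2FC against WT -4.18, SE 0.18). Hnf4g had 87.3 to 103 FPKM in WT and 8.83 to 10.0 FPKM in Apc (-3.59, SE 0.09). Hnf4a fell by 1.27 (SE 0.06). The adjusted p was at most 8.6e-08 for these 3. Cdx2 overlapped between the groups (-0.17, SE 0.09, adjusted p = 0.15).

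Markers of mature cell types were mostly lower in Apc, as were Ccl25, Ccl28, Ccl9, Ccl20 and Cx3cl1. All 10 enterocyte markers, led by the apolipoprotein genes Apoa4 and Apoa1, were called lower in Apc than in WT (median -8.82), and their summed level was 59.9 to 87.4 FPKM in Apc, 3520 to 10100 FPKM in WT and 2510 to 5620 FPKM in P-Rspo3. Of 6 goblet cell markers 5 were called lower (median -3.19), and of 5 Paneth cell markers 4 were called lower and 1, Mmp7, higher (median -2.55). Over all genes tested, 14.1% were called lower and 12.2% higher. In P-Rspo3 against WT none of these enterocyte, goblet or Paneth cell markers was called. In bulk RNA, fewer cells of a type and less RNA per cell cannot be told apart, and the part of cell composition in the fall of Ccl25, Ccl20, Ccl28 and Ccl9 was not tested. Of the 10 immune cell markers, 5 were at or below 3 counts in every WT and Apc library. Among those detected, the phagocyte marker Cd68 was higher in Apc (3.65 to 10.1 FPKM) than in WT (0.539 to 1.35 FPKM), and Csf1r and Itgam were lower. Ptprc, which all leukocytes carry, had 0 to 2 counts in Apc and 0 to 24 in WT. The summed level was 3.91 to 10.7 FPKM in Apc, 2.12 to 3.59 FPKM in WT and 1.45 to 4.27 FPKM in P-Rspo3. The sum over 6 fibroblast markers was at most 0.311 FPKM in any library and that over 4 endothelial markers at most 2.68 FPKM, both highest in Apc, where Pdgfra, Cdh5 and Tek were called higher and Pecam1 lower.

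**Figure D5:**
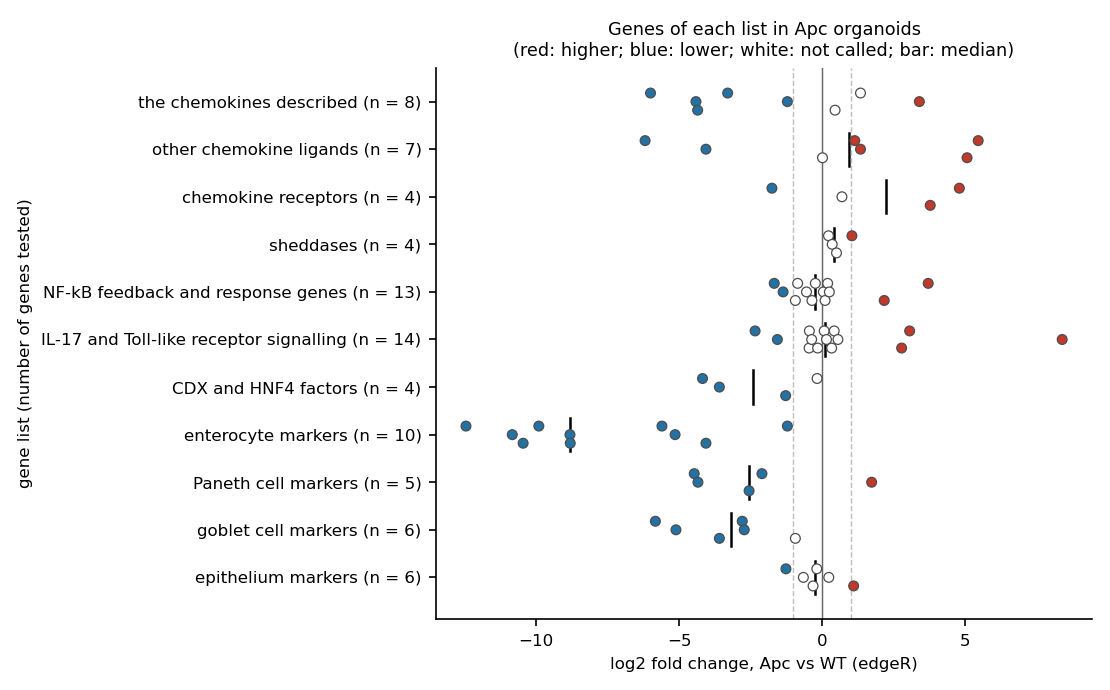
Log2 fold change of Apc against WT from edgeR (horizontal axis) for each gene tested in the named lists (vertical axis), coloured by call. A bar marks the median of each list except the chemokines described. In that median, genes with at most 3 counts in each library of a group were set at a bound. For other chemokine ligands it is 0.95, against 1.15 for the points. The chemokines and the NF-kB and Toll-like receptor lists spread to both sides, whereas all 10 enterocyte markers lie below -1. Over all genes tested, 12.2% were called higher and 14.1% lower. Points of genes undetected in either group show the fitted value and are not bounds.

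The genes whose profiles over the 13 libraries were most like each ligand were found by the root mean square (RMS) difference of log2(CPM + 0.5), with CPM scaled by TMM, after each gene's mean was subtracted, among 16589 genes. Most like Ccl25 were Dhrs11 (RMS 0.196), Cyp2c65 (0.203) and Tldc2 (0.235). Ccl28 was closest to Sult1d1 (0.306), Ccl9 to Ttr (0.366) and Ccl20 to Bpnt1 (0.268). Cx3cl1 was closest to Mfn2 (0.105), Mob3c (0.112) and the epithelial marker Vil1 (0.114), which was itself called lower in Apc (log2FC -1.26). Cxcl16 was closest to Ppp1r18 (0.234) and Cxcl1 to Nudt17 (0.227). No other chemokine ligand was among the 3 nearest of any of the 8 ligands tested. The 13 points share their libraries and their 3 groups, and these likenesses are descriptions.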

How the data were processed

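Polyadenylated RNA from the organoids was sequenced, mapped by the authors with STAR (GRCm38) and deposited as raw counts per gene from HTSeq 0.6.0. The authors also deposited FPKM values per gene from Cufflinks 2.2.1. The annotation release and strand setting are not given in the sources used here, so reads of genes that overlap on opposite strands may be mixed. Groups came from the sample labels. Of 15 libraries, 2 whose title and genotype label conflict (titled LIPO and NAIVE_F) were kept out of the groups and used only in alternatives.

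Counts of genes with at least 0.1 FPKM in at least 4 libraries of a comparison were scaled by TMM and tested with edgeR 4.0.16 (quasi-likelihood, R 4.3.3), with Benjamini-Hochberg adjustment over all genes tested. DESeq2 1.42.0, limma 3.58.1, other filters, other scaling and leaving out each library were alternatives. Scripts were tested on simulated data. The 10 ligands and all gene lists were chosen with earlier results of these data known. All members are named, and of each other list the receptors of the members (1 is not reported here), the proteases and up to 4 called genes a direction with the largest fold change. WT and Apc libraries with the same number come from the same line by their titles. Their deviations from the group means correlated at -0.00254 to 0.222 (median 0.109, n = 4 pairs), and those of other pairs had a median of -0.0412. Gene positions are from GENCODE M21 on GRCm38, promoter sequences from RefSeq on GRCm38.p6. Ratios of summed counts carry exact (Clopper-Pearson) 95% intervals from the split of the reads (scipy 1.17.1), which cover counting error only, as does the limit of 3 counts.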

Additional observations from a re-analysis of the deposited data

Results flagged for a closer look

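Among 25 groups of libraries examined for a value far from the others, 2 held one, where chance alone gives about 0.05 of groups. The Ccl20 level of 2.65 FPKM in P-Rspo3 library 15d lay apart from the other 3 libraries (8.36 to 9.14 FPKM). The same library had the lowest summed enterocyte markers of its group, 2510 FPKM. It also had the highest summed Paneth and goblet cell markers, 6780 and 1400 FPKM. The part of these in the Ccl20 value was not tested. The Ccl5 level of 0.274 FPKM in WT replicate 1, from 5 counted reads, lay above the other WT libraries (0 or 1 read).

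The library titled NAIVE_F, which entered no group, had Ccl20 at 9.82 FPKM and Ccl28 at 20.9 FPKM, each above the highest WT value (7.76 and 20.5 FPKM). Its genotype label reads P-Rspo3 and its Ccl28 lay within the P-Rspo3 range, while its Ccl20 lay above it. The ranges of WT and P-Rspo3 overlapped for both genes, so these values do not settle its label.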

How the results depend on the processing

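Over the alternatives of Apc against WT, 167 of 170 member values kept their direction and their side of the call. This held for 135 of 141 in P-Rspo3 against WT and 125 of 132 in Apc against P-Rspo3. The values are not all from separate fits. In comparisons with WT, leaving out NAIVE and keeping the flox lines alone are the same fit. Dropping the fold threshold reuses the main fit. Settings in which a member failed the filter are not counted. In Apc against WT the count of members called higher was 3 with no FPKM filter, 0 with a minimum of 1 FPKM and 0 with limma on log2(FPKM + 1), by the construction of the filters in the first 2 settings. In Apc against P-Rspo3 it was 5, 1 and 1, and 1 to 2 when each library was left out. Cx3cl1 was weaker with limma in Apc against P-Rspo3 (-0.90 and -0.82), as was Cxcl1 with log2(FPKM + 1) (0.74). The pseudocount of 1 FPKM also shrank called falls against WT, to -3.82 for Ccl28, -3.19 for Ccl9 and -2.07 for Ccl20, by its construction. Differences of P-Rspo3 from WT that turned direction were all near 0. Ccl9 was 0.08 without P-Rspo3 library F and 0.12 with the conflicting libraries placed by genotype label (-0.43 to 0.08 when each library was left out). Cx3cl1 was 0.01 without WT 5, 0.01 without 15d, 0.05 without M and 0.03 with those libraries crossed (-0.22 to 0.05 when each library was left out). The cause was not tested.

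With a replicate block for the line, Apc against WT kept 1 member higher and 5 lower (Ccl25 -4.40, Ccl28 -6.00), and the block changed no call of a member. Over all genes, P-Rspo3 against WT gave 1 higher and 0 lower in edgeR, 55 and 173 in DESeq2, 14 and 61 with all groups in 1 fit, and 166 and 100 without the NAIVE library. No member was called in any of these. Depth limits Cxcl5, Cxcl14 and Ccl5, which had at most 43 reads in a library.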

Other observations

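The library titled LIPO, labelled dox-naive WT in ENR medium, entered no group. It had 273 FPKM of Ccl25, 17.6 of Ccl28, 9.05 of Ccl9, 15.4 of Cx3cl1, 6.84 of Ccl20 and 5.0 of Cxcl16. Its Ccl9 lay below the WT range and within that of P-Rspo3, and it had 1 read of Cxcl1, 1 of Cxcl5, 4 of Ccl5 and none of Cxcl14. The library titled NAIVE_F, labelled P-Rspo3 in EN medium, had 277 FPKM of Ccl25, 21.1 of Ccl9, 13.2 of Cx3cl1 and 4.58 of Cxcl16. Its Ccl25 and Ccl9 lay above the P-Rspo3 range and within that of WT. As WT and P-Rspo3 ranges overlapped for these genes, the values do not settle the label of either library. Both libraries were far from the Apc range for Ccl25, Ccl28, Ccl9 and Ccl20.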
